A study of Drosophila melanogaster with 13 samples.

Results

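The transcripts described here were strongly reduced in testes of Drosophila melanogaster males mutant for sa, aly or topi. The loss often reached background in aly and on topi replicate 1. In testes mutant for dany the transcripts were within 1 log2 unit of control. They were 35 of the 25796 targets on the array and 35 of the 11888 FlyBase transcripts whose probe stood well above background on all 4 control arrays. The members were picked by their measured values. The control mean had to exceed the aly mean and topi replicate 1 by at least 5 on the log2 scale and the sa mean by at least 3, while the dany mean had to lie within 1 of control. A level is throughout the log2 processed signal of a probe after the array's own 75th percentile is subtracted. The values of dany, sa, aly and topi replicate 1 against control are therefore a description and were not tested. Topi replicate 2 was the only array that the limits did not use, although it entered the mean over all arrays that picked the probe of each transcript. With the probe picked on the control arrays alone the limits chose 36 transcripts, all 35 members among them.

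Testes of males aged 0 to 2 days were measured on 13 1-colour arrays, each with RNA pooled from 80 testes of flies raised at 25 °C. The dany testes (3 arrays) carried the allele dany[ex11] over the deficiency Df(2R)BSC802 in w[1118] males. The sa testes (2 arrays) combined sa[1] on a chromosome marked th and red with sa[2] on one marked ru, h and ca. The aly testes (2 arrays) carried aly[2] over aly[5], both with red and e, in w* males, and the topi testes (2 arrays) carried topi[Z3-0707] over topi[Z3-2139] with bw. Control testes (4 arrays) came from w[1118] males with Df(2R)BSC802 over a wild-type chromosome, so that control and dany shared 1 copy of the deficiency, which the other mutants are not labelled as carrying. The 3 other mutants thus differed from control in background as well as in the mutated gene, and these cannot be told apart. Each mutant was represented by 1 combination of alleles. Where whole testes are compared, fewer cells of a type and less RNA per cell cannot be told apart.

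Meiosis and sperm differentiation in the fly rest on transcripts that primary spermatocytes make in bulk before the divisions and store for later use. Their production depends on 2 groups of meiotic arrest genes. The products of aly and topi belong to the testis meiotic arrest complex (tMAC), which acts at promoters of spermatocyte genes, with topi encoding a zinc finger protein. The product of sa is a testis TAF, a germline version of a subunit of the general transcription factor TFIID. Germ cells lacking any of the 3 stop as mature spermatocytes, without dividing or forming spermatids. The gene dany also acts in spermatocytes, in the control of transcription. The comparison behind the members asks which transcripts reduced in both the tMAC and the testis TAF mutants stay near control in dany mutants.

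None of the 35 members could be paired with a gene symbol. The array gives them as FlyBase transcript identifiers, and the gene table used here held 9 of the 15676 transcripts so named. Members are therefore called by their identifiers, with no gene, role or position, and no sequence is shown. Of the targets with a symbol, the tested ones on the lists examined were few. Of 17 comet and cup genes, which are transcribed after meiosis, 3 were tested: f-cup was lower on topi replicate 2 than in control (-1.83, adjusted p = 0.000351), while soti (-0.59, adjusted p = 0.145) and hale (-2.12, adjusted p = 0.394) did not pass (limma, as for all adjusted p-values below). In dany, the genotype that kept the members, f-cup (-2.68, adjusted p = 1.77e-06) and soti (-1.26, adjusted p = 0.000801) were lower than in control. In sa and aly, f-cup was lower too (-2.65 and -1.80, adjusted p = 7.92e-06 and 4.87e-05). Soti did not pass there (0.26 and 0.55, adjusted p = 0.403 and 0.0797), and its mean control level was low (-4.94). Of 5 spermatid markers, which would be present in whole testes, soti and f-cup were the 2 tested, and both stood above background on all 4 control arrays. Of 9 listed tMAC genes and partners 1 was tested, the partner wuc, which was higher on topi replicate 2 (2.71, adjusted p = 9.25e-05). Among 9 markers of somatic hub and cyst cells, eya was higher on topi replicate 2 (1.13, adjusted p = 0.00845) and ptc (-0.37) and puc (-0.997) did not pass. No tested target stood for sa, aly or topi, for early germline, primary spermatocyte, accessory gland, muscle, fat body or blood cell markers, or for the lists of spermatid differentiation, meiotic cell cycle, testis TAF and Y fertility genes.

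Between 60.1% and 75.9% of all probes stood well above background per array, with the 3 dany arrays highest (74.8% to 75.9%). Replicates of a group correlated over the tested targets at r of at least 0.962 except in topi, where r was 0.916. The gap between the topi arrays, which share a genotype label, touches every result below. Over the 509 transcripts that met the limits on aly, topi replicate 1 and sa, whatever their dany level, topi replicate 1 minus control ran between -13.19 and -5.001 on the log2 scale. On topi replicate 2, 382 of the same transcripts (75%) lay in the narrow range from 5 to 3.5 below control, and the differences of the 2 arrays were unrelated across transcripts (Spearman coefficient 0.05 over 509 transcripts of the same arrays, given as a description). Of the 35 members 21 lay in that range on topi replicate 2, 12 lay below it and 2 above it. The source of this narrow range was not tested. The loss without that array is given by the aly arrays and topi replicate 1.

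**Figure D1:**
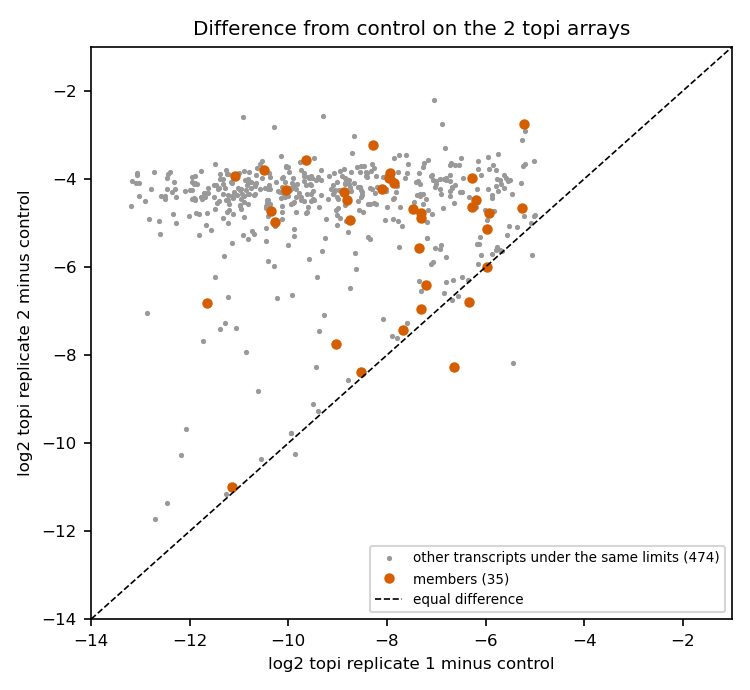
Difference from control on topi replicate 2 (vertical axis, log2) against that on topi replicate 1 (horizontal axis, log2), 1 point per transcript, for the 35 members and the other transcripts that met the same limits on aly, topi replicate 1 and sa. The dashed line marks equal differences: most points form a flat band between -5 and -3.5 on topi replicate 2, while 12 members lie below that band.

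The dany testes kept the members close to control, as the rule required. All 35 stood above background on every dany array, as did 98.8% of all transcripts detected in control. Their median difference from control was -0.60, between -0.99 and 0.86. The dany mean lay below control for 29 members and above it for 6. All 3 dany arrays lay below the lowest control array for 13 members and above the highest for 2, and for 20 the groups overlapped (26.8% and 33.6% of all 19628 targets tested lay wholly below and wholly above). The groups of most members thus overlapped, and the sign of the median turned with spike-in scaling (0.07, with 14 of 35 below control). Within slides, dany minus control had a median of -0.70 on slide 1, -0.68 on slide 3 and -0.57 on slide 4 over the members. Over all transcripts detected in control the medians were -0.18, -0.23 and -0.17 on the same slides and -0.19 between the group means.

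FBtr0080227 was the member with the highest dany difference. Its level was 4.21, 3.81 and 4.04 in dany, -0.02 and -3.32 in sa, -4.36 and -4.88 in aly, and -5.65 and -1.31 on topi replicates 1 and 2, against 3.41, 2.89, 3.26 and 3.08 in control. The dany arrays were all above the control arrays (mean difference 0.86), and every arrest mutant array was below them. FBtr0290142 lay at the other limit, with 1.41, 2.17 and 1.89 in dany, -1.55 and -0.91 in sa, -8.09 and -8.28 in aly, and -7.68 and -0.998 on topi replicates 1 and 2, against 2.28, 2.82, 3.29 and 2.83 in control. Here all dany arrays were below all control arrays, by 0.99 on average, and aly and topi replicate 1 were not above background. FBtr0332424 had the tightest dany and control levels of the named members: 0.01, -0.01 and -0.07 in dany against 0.59, 0.63, 0.53 and 0.73 in control. It was below background in aly (-8.31 and -8.496) and on topi replicate 1 (-8.25) and measurable in sa (-2.31 and -2.55) and on topi replicate 2 (-3.67).

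**Figure D2:**
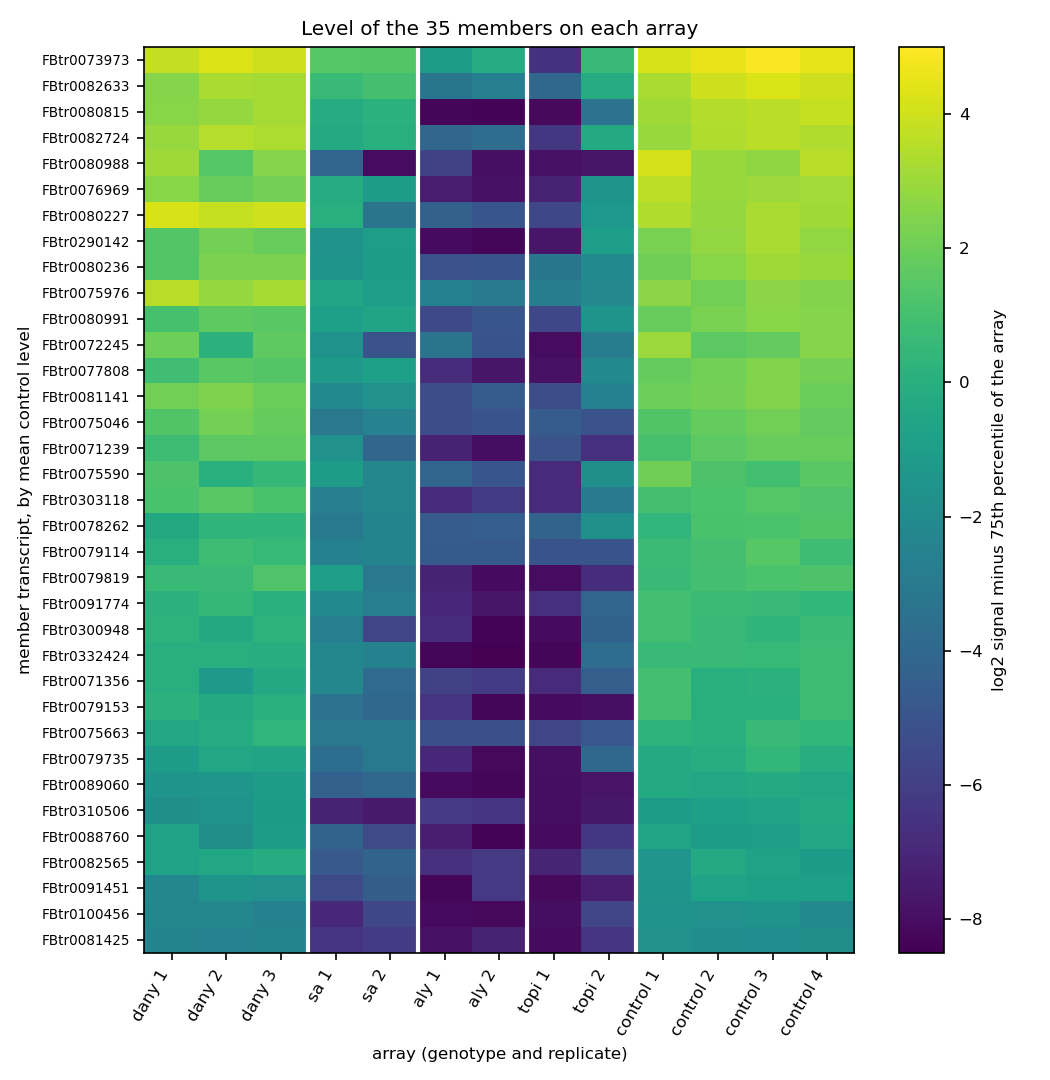
Level of each of the 35 members (rows, by mean control level) on each of the 13 arrays (columns, with dany, sa, aly and topi left of control), coloured by the level on the log2 scale. The dany and control columns are alike within rows, the aly and topi replicate 1 columns are darkest, and sa and topi replicate 2 lie between.

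The limits cut a continuous range of values. Of the 509 transcripts lost in the 3 arrest mutants, the 35 members were 6.88%, while 470 had a dany mean more than 1 below control and 4 had one more than 1 above it. In dany the 509 had quartiles of -3.49 and -1.88 (median -2.56), and 33 lay between -1.5 and -1, just outside the limit. The last member inside the lower dany limit, FBtr0290142, had -0.99 and the first transcript outside it, FBtr0085315, -1.004. At the upper dany limit these were FBtr0080227 with 0.86 and FBtr0078142 with 1.13. Control exceeded sa by 3.05 for FBtr0079819 inside that limit and by 2.98 for FBtr0078548 outside it, the first of 177 transcripts that missed the sa limit alone. The limit on aly fell between 5.18 (FBtr0075976) and 4.75 (FBtr0082693), and that on topi replicate 1 between 5.22 (FBtr0078262) and 4.46 (FBtr0083042).

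**Figure D3:**
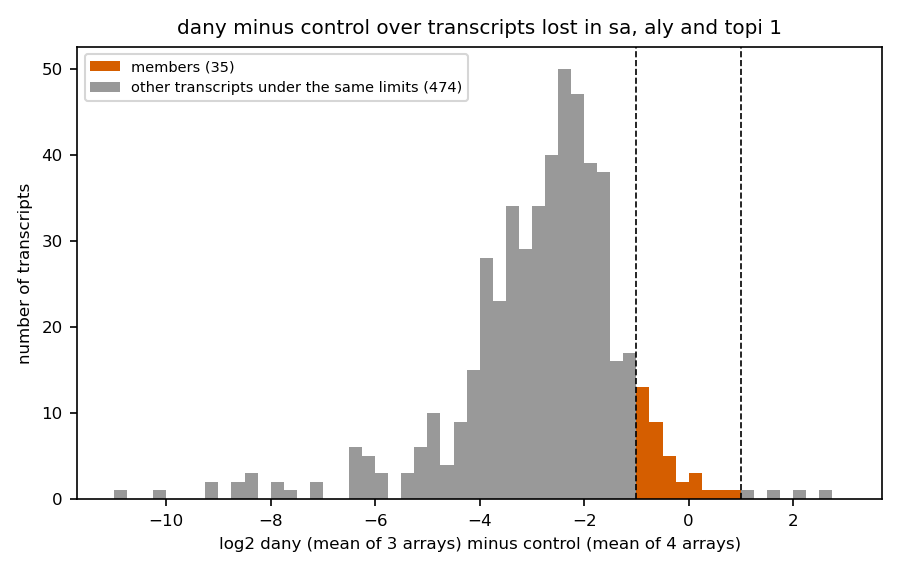
Number of transcripts (vertical axis) by the log2 difference between the dany mean and the control mean (horizontal axis), for the 509 transcripts that met the limits on sa, aly and topi replicate 1. Dashed lines mark the limits of -1 and 1 that chose the 35 members, which form the right shoulder of a single broad distribution with its median at -2.56.

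The loss in aly and on topi replicate 1 often reached background. In aly the members lay a median of 7.19 below control (5.18 to 11.79), and on topi replicate 1 a median of 7.86 (5.22 to 11.65). For 19 of the 35 every spot was at background on both aly arrays and 25 were at background on topi replicate 1, whereas 88.9% and 88% of all transcripts detected in control were above background on both aly arrays and on topi replicate 1. For such members only a bound can be given, computed against the higher of the measured level and the lowest level that stood well above background on the array. These bounds were at least 19.8-fold to at least 790-fold below control in aly and at least 17.7-fold to at least 1483-fold on topi replicate 1. The 18 members at background on both aly arrays and on topi replicate 1 included 14 that both sa arrays still detected and 11 that topi replicate 2 detected.

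FBtr0080815 had 2.60, 2.85 and 3.17 in dany, -0.13 and 0.10 in sa, -8.24 and -8.39 in aly, and -8.17 and -3.35 on topi replicates 1 and 2, against 3.05, 3.45, 3.59 and 3.79 in control. Only aly and topi replicate 1 were below background, at least 790-fold and at least 708-fold below control. FBtr0073973 differed between the tMAC arrays: it had -1.11 and -0.22 in aly, -6.56 on topi replicate 1 and 0.61 on topi replicate 2. Its dany levels were 3.75, 4.30 and 3.95 and its sa levels 1.46 and 1.39, against 4.19, 4.53, 4.91 and 4.52 in control. On the chosen probe it was at background on topi replicate 1, at least 1483-fold below control. Topi replicate 2 detected it, 15.2-fold below control, a gap that its dimmer second probe did not show. FBtr0082633 showed the same order and was detected on every array, at 2.56, 3.28 and 3.17 in dany, 0.59 and 1.01 in sa, -3.26 and -2.69 in aly, and -3.99 and -0.21 on topi replicates 1 and 2, against 3.27, 3.96, 4.25 and 4.00 in control. The median gap between the topi arrays was 2.48 over the members, against 0.56 between the aly arrays and 0.57 between the sa arrays, with readings at background taken as they stand.

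In sa most members were reduced but still measured. The members lay a median of 3.72 below control (3.05 to 9.41), and 23 of 35 lay under 4 below it. Of the 35, 31 were above background on both sa arrays and 1 on neither, whereas 97.5% of all transcripts detected in control were above background on both. The aly mean was below the sa mean for 34 members, an order that the unequal limits of the rule (5 for aly, 3 for sa) favoured. The exception was FBtr0310506, with -7.16 and -7.55 in sa, -6.23 and -6.48 in aly, and -8.01 and -7.65 on topi replicates 1 and 2, while dany had -1.77, -1.57 and -1.15 and control -1.06, -0.82, -0.68 and -0.25. No arrest mutant array detected this transcript, so the order of sa and aly is an order below background, and the bounds were at least 54.97-fold below control in sa and at least 43.8-fold in aly.

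FBtr0080988 had the largest sa difference, 9.41, with uneven replicates, of which sa replicate 2 was at background. It had -4.12 and -8.07 in sa, -5.88 and -7.95 in aly, and -7.82 and -7.68 on topi replicates 1 and 2. Dany had 3.07, 1.47 and 2.54 and control 4.10, 2.91, 2.73 and 3.52. In control, dany, sa and aly alike, the array of slide 1 was the highest. This held for 9 of the 35 members, among them 4 of the 6 whose sa replicates were over 2 apart (sa replicate 2 was the lower in all 6). The part of the slide in these gaps was not tested. Within slides the sa loss had a median of -3.39 on slide 1 and -3.88 on slide 3, and every member was lower by at least 2-fold on both.

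**Figure D4:**
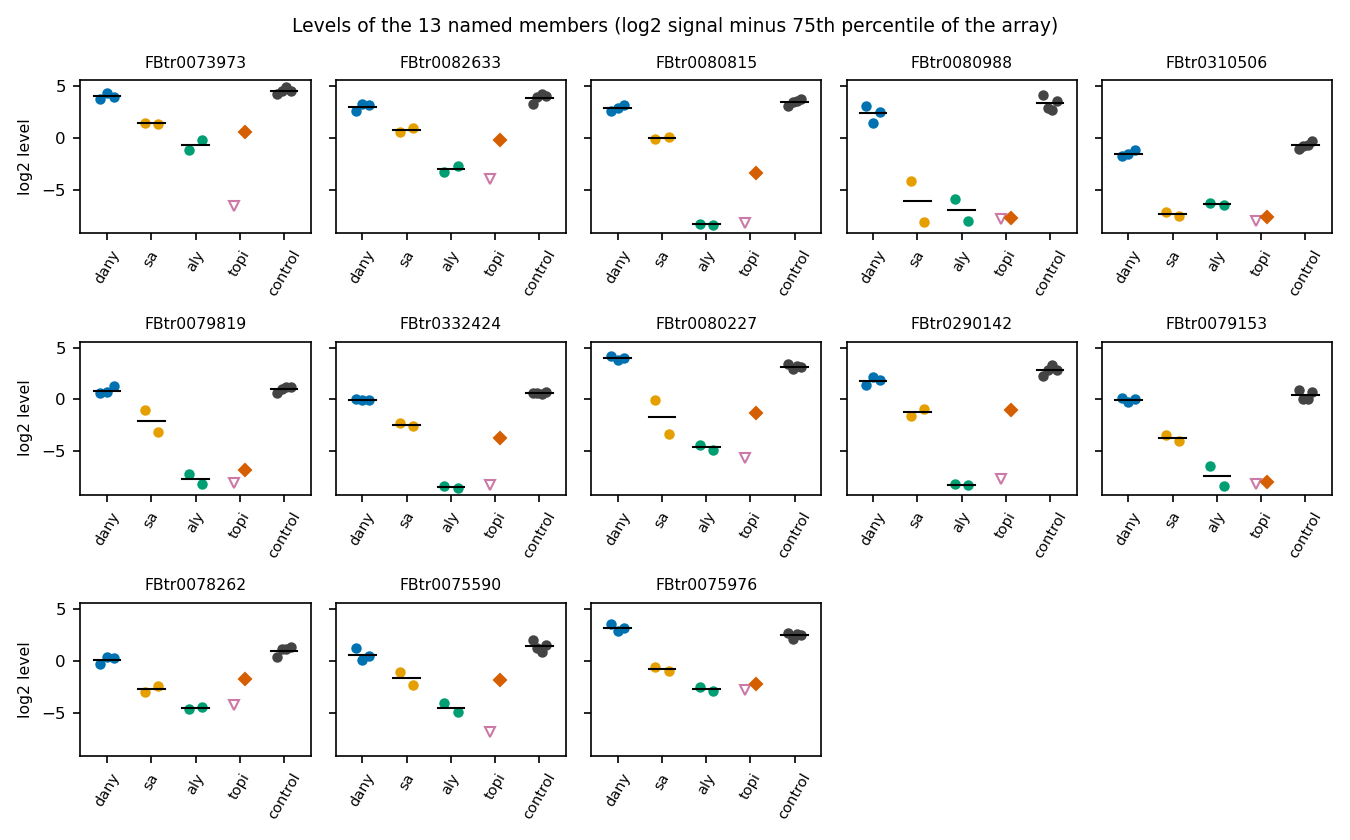
Levels of the 13 named members (log2 scale), 1 panel each, with 1 point per array, black bars for the means of dany, sa, aly and control, and topi replicate 1 drawn as an open triangle and topi replicate 2 as a filled diamond. Dany and control points lie within 1 of each other in mean, while topi replicate 2 lies far above topi replicate 1 in panels such as FBtr0073973 and FBtr0290142 and beside it in FBtr0080988 and FBtr0079153, where both readings are at background.

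Topi replicate 2 was the 1 array whose difference from control the limits had not set. It was compared with control arrays that the rule had also used. A linear model with separate means for the 2 topi arrays was fitted to all targets, and a call needed both a 2-fold difference and a p under 0.05 after Benjamini-Hochberg adjustment over all targets. All 35 members were lower on topi replicate 2 than in control, by a median of 4.72 (2.74 to 11.00, median SE 0.415, largest adjusted p = 0.00492). Of all 19628 targets tested 20.7% were called lower, and of the transcripts detected on all control arrays 26.8%. The median over all targets was 0.68, on the side of higher levels. The members were all detected in control, by rule, and many of the targets tested were not. They also had to be lost on topi replicate 1, which has the same genotype label. The 1186 transcripts that met the limits on aly and topi replicate 1 had a median of -4.23 on topi replicate 2. A fall there thus followed largely from the choice, and the shares over all targets do not make it an independent result. With the slide as a term all 35 were called, and within slide 3, which held topi replicate 2 and control replicate 3, all 35 were lower by at least 2-fold (median -4.61). The error of a single array is taken from the spread of the other groups, and each topi array had its own mean. The gap between the topi arrays, a median of 2.48 over the members, is thus not in the adjusted p-values.

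On topi replicate 2, 21 of the 35 members lay in the narrow range between -5 and -3.5 described above, as did 75% of the 509. Whether the size of the fall in this range belongs to the array or to the transcripts was not tested. For the 25 members it detected, the fall was between 6.68-fold and 113-fold, and for the other 10 it was between at least 15.5-fold and at least 557-fold. FBtr0080988 was at least 557-fold lower (fitted log2 change -11.00, SE 1.288, adjusted p = 5.96e-05), as it was not detected on either topi array. FBtr0079153 was also at background on both topi arrays, with 0.17, -0.25 and 0.03 in dany, -3.39 and -3.99 in sa, -6.40 and -8.33 in aly, and -8.10 and -7.96 on topi replicates 1 and 2, against 0.91, 0.01, 0.05 and 0.76 in control. It was at least 75.2-fold lower on topi replicate 2 (fitted change -8.39, SE 0.635, adjusted p = 3.82e-06), a bound below the 113-fold fall of FBtr0080815, which was detected there. At the other end, FBtr0078262 had -1.74 on topi replicate 2, -4.22 on topi replicate 1, -4.61 and -4.46 in aly, -3.03 and -2.40 in sa, and -0.27, 0.35 and 0.33 in dany, against 0.37, 1.12, 1.18 and 1.35 in control. Its fall of 2.74 (SE 0.414, adjusted p = 0.00032) was the smallest of the members, and its call ended with spike-in scaling (-2.44, adjusted p = 0.0607). FBtr0075590 fell by 3.23 (SE 0.593, adjusted p = 0.00112), to -1.80 on topi replicate 2, while topi replicate 1 had -6.84 and aly -4.08 and -4.87; sa had -1.09 and -2.27, dany 1.21, 0.05 and 0.51, and control 2.05, 1.22, 0.91 and 1.55.

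**Figure D5:**
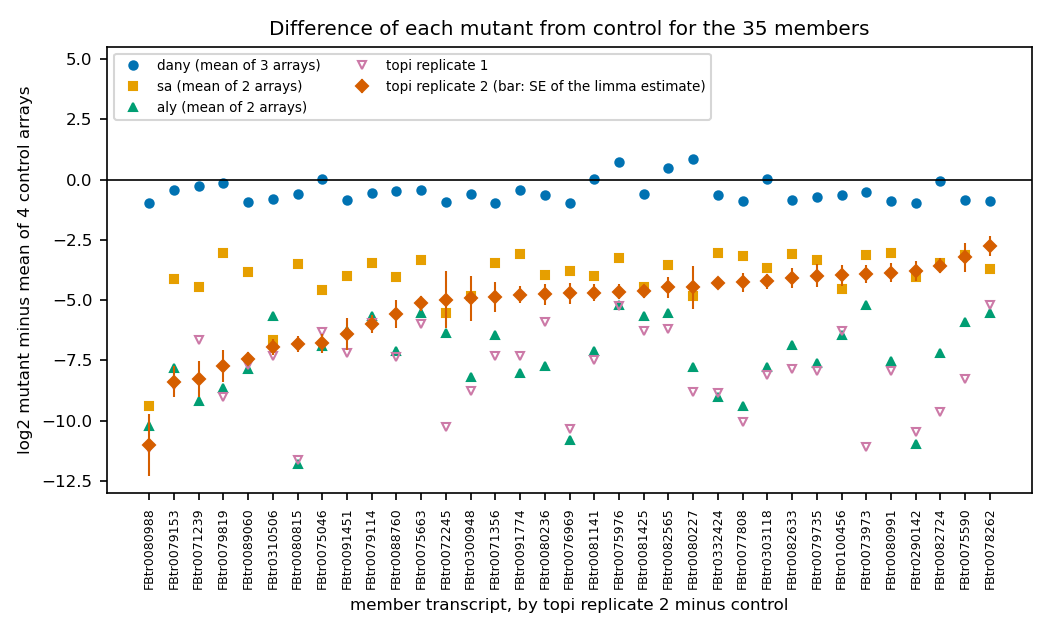
Log2 difference from the control mean (vertical axis) for each of the 35 members (horizontal axis, ordered by topi replicate 2), for dany, sa, aly, topi replicate 1 and topi replicate 2, with the SE of the limma estimate as bars for the last. Dany stays between -0.99 and 0.86, topi replicate 2 runs between -11.00 and -2.74, and topi replicate 1 lies below topi replicate 2 for 32 of the members.

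The comparison with dany largely repeats that with control, since the rule held dany within 1 of control. All 35 members were lower on topi replicate 2 than in dany (median -4.33, between -10.04 and -1.87, largest adjusted p = 0.0163). Of all targets tested 27.7% were lower in that comparison. FBtr0075976, the member nearest the aly limit, was above control in dany: 3.53, 2.87 and 3.20 in dany, -0.57 and -0.94 in sa, -2.55 and -2.86 in aly, and -2.78 and -2.17 on topi replicates 1 and 2, against 2.67, 2.15, 2.64 and 2.46 in control. It was detected on every array and was 41.3-fold lower on topi replicate 2 than in dany (-5.37, SE 0.333, adjusted p = 1.99e-06).

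Against sa, 12 of the 35 members were lower on topi replicate 2 and none was higher (at an unadjusted p under 0.05 the model gave 14 differences), with the other 23 not passing. Of all targets tested 14.5% were lower in topi replicate 2 than in sa and 13.2% higher. The 12 differences lay between -4.69 and -1.24 on the log2 scale (largest adjusted p = 0.0327), and 5 of the 12 were not detected on topi replicate 2. The sa arrays had been used in choosing the members. Each fold given below for a transcript is against the mean of the sa arrays. For FBtr0079819 these lay far apart, so its bound is not one against sa replicate 2 alone. FBtr0079819, with 0.60, 0.67 and 1.26 in dany, -0.9996 and -3.12 in sa, -7.21 and -8.09 in aly, and -8.04 and -6.75 on topi replicates 1 and 2, against 0.60, 0.98, 1.16 and 1.22 in control, was at least 13.4-fold lower on topi replicate 2 than in sa (adjusted p = 0.00124). FBtr0080815 was 10.0-fold lower (-3.33, SE 0.349, adjusted p = 0.00013) and FBtr0332424 2.37-fold lower (-1.24, SE 0.237, adjusted p = 0.00377). For FBtr0290142 no difference was detected (0.23, SE 0.455, adjusted p = 0.743), and FBtr0310506, at background in sa and on topi replicate 2, could not be compared. This count depended on the fit: it was 19 with the slide as a term, 15 were at least 2-fold lower within slide 3, and 3 remained with spike-in scaling. It rests on the topi array whose losses mostly lay between 3.5 and 5, although most of the 12 lay outside that range.

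Other probes gave a partial check of the members. A second probe existed for 12 members, and 9 of these stood above background on all 4 control arrays. On these 9 the dany difference lay between -1.82 and 0.32, within 1 of control for 7, and 4 met every limit of the rule. For FBtr0073973 dany minus control was -0.53 on the chosen probe and -0.54 on the second. For FBtr0078262 it was -0.87 on the chosen probe and -1.82 on the second, outside the limit. Whether the probes meet different transcripts was not tested.

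The nearest comparison is with the transcripts that met the same limits on the arrest mutants but not on dany. On topi replicate 2 the 35 members had a median of -4.72 (quartiles -6.20 and -4.15), and the 470 transcripts with dany more than 1 below control had a median of -4.32 (quartiles -4.79 and -4.01). Topi replicate 2 detected 71.4% of the members and 91.7% of the 470, whose median probe levels in control were 1.24 and 3.36, so that the members were nearer to background before any loss. It called 468 of the 470 lower than control, so the fall on this array is shared by both sets. A further 177 transcripts met the limits on aly, topi replicate 1 and dany but missed that on sa. In sa the members had a median of -3.72 and these 177 one of -1.42, while on topi replicate 2 the 177 had -4.18. No test of these differences was made, and none is called particular to the members.

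Which transcripts count as kept in dany depended on the scaling between arrays. With median scaling the dany median over all targets moved by -0.76, and only 8 of the 35 members stayed within 1 of control in dany (median -1.36, 34 of 35 below control). With spike-in scaling it moved by 0.67, and 32 of the 35 stayed within 1 (median 0.07, 14 of 35 below). Quantile normalization and the deposited table each moved it by about -0.1 (-0.11 and -0.10) and left 27 within 1. Normexp background correction, with a shift of -0.30, left all 35. With the scaling used here the median of the members in dany was -0.60 and that of all targets 0.06. The median and spike-in scalings move both by the same amount. The direction in dany thus holds for 29 members with the 75th percentile and for 14 with spike-in scaling.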

How the data were processed

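RNA of 13 testis samples was measured on 1-colour Agilent arrays with 45019 spots, of which 1417 were control spots. The deposited intensity values are the processed signals of Agilent Feature Extraction 10.7.3.1 (protocol GE1_107_Sep09, per the file headers), already background-subtracted. The series table, deposited by the authors as log2 values with a normalization not given in the sources used here, served as an alternative. Spots with an outlier flag (51 to 113 on each array) were dropped where the probe had another, and saturation flagged 0 spots.

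Each array's 75th percentile was subtracted from its log2 signal, spots were averaged per probe, and the probe with the highest mean over all arrays stood for a transcript. A target was tested if all arrays of some group had it well above background (19628 targets). Limma 3.58.1 in R 4.3.3 fitted 6 means to the 13 arrays, with the topi arrays apart, and p-values were adjusted by Benjamini-Hochberg over all targets tested. The fit was tested on simulated data. The number of arrays limits the precision, and p-values measure the spread between pools of 80 testes. The files' design names another genome build than the reference table, so no positions are given.

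The members, gene lists and tests were chosen with earlier results of these data known. Transcripts were named by rule: the 3 of highest control level, the extremes of the sa, dany and topi replicate 2 differences, and those nearest each limit. Other scalings, background correction, probe choice, filters, slide and replicate blocks and the omission of each array but topi replicate 2 (and, for the choice of members, topi replicate 1) were tried as alternatives.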

Additional observations from a re-analysis of the deposited data

Results flagged for a closer look

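For 5 named members topi replicate 2 differed from sa in the limma fit, each lower than on both sa arrays. FBtr0079819 and FBtr0332424 were named for a small loss in sa and FBtr0079153 for a large loss on topi replicate 2, so the pattern is in part that of the choice. The difference was -4.69 for FBtr0079819 (adjusted p = 0.00124) and -4.27 for FBtr0079153 (adjusted p = 0.00161), both at background on topi replicate 2, so that these fitted values stand for at least 13.4-fold and at least 4.31-fold. It was -3.33 for FBtr0080815 (adjusted p = 0.00013), -1.41 for FBtr0075976 (adjusted p = 0.0143) and -1.24 for FBtr0332424 (adjusted p = 0.00377), all detected on topi replicate 2 and on both sa arrays. FBtr0080815 and FBtr0332424 were at background on topi replicate 1. The bounds are against the mean of the sa arrays, which for FBtr0079819 lay at -0.9996 and -3.12. The sa arrays had been used in choosing the members, the differences rest on 1 topi array, and 3 of the 12 calls among all members held with spike-in scaling.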

How the results depend on the processing

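The choice of members depended on the processing. In place of 35, the rule chose 11 transcripts with median scaling (7 shared), 67 with quantile normalization (23 shared), 73 with spike-in scaling (26 shared), 19 with normexp (17 shared) and 52 with the deposited table (14 shared). Leaving out 1 array at a time (neither topi array) gave 33 to 40. Of the 35 members these runs kept between 26 (without control replicate 3) and 35 (without aly replicate 2). The count lower on topi replicate 2 than in control or dany was 34 or 35 in every alternative run. Against sa it was 19 with the slide as a block and 3 with spike-in scaling, and 10 to 15 with 1 array other than topi replicate 2 left out. The median difference from control moved to -4.42 with spike-in scaling, -3.98 with normexp and -4.24 with the deposited table, and lay between -4.77 and -4.68 with 1 array left out. With the replicate number as a block the counts were 35, 35 and 17 and the median was -4.44. Of 21 same-numbered pairs, 12 correlated in their deviations from the group means, at r between 0.453 and 0.745, 4 of them across slides. The 8 pairs with topi and the pair control 3 and dany 3 had r between -0.0475 and 0.0594. Pairing was therefore not taken as shown for the topi comparisons, and deviations in groups of 2 arrays mirror each other. Of the named members' alternative values, 307 kept direction and call, 4 moved within a slide, 1 lost its call (FBtr0078262, -2.44 with spike-in scaling) and 0 reversed. The values within a slide had no test, so for them only the direction and size were compared. The causes were not tested. Where signals were at background, only bounds can be given for the losses in aly and topi.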
